A study of Mus musculus with 4 samples.

Results

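Serpins are a family of protein inhibitors that trap serine proteases, and a few cysteine proteases, by changing shape once the protease has cut an exposed loop. Their mouse genes are named by clade, from a to i, and the names served to select them. All gene symbols made of Serpin, a clade letter from a to i and a number were taken from the authors' annotation of open chromatin peaks. This gave 48 serpin genes of the 25458 genes that had a promoter or distal peak in either library. Clade a held 24 of them, clade b 13, clade e 3, clades f and i 2 each, and clades c, d, g and h 1 each. The groups were livers of Mertk knockout mice after bile duct ligation and livers of wild-type mice after the same operation. Mertk encodes a receptor kinase with which macrophages take up dying cells, and ligation of the bile duct leads to cholestasis and liver fibrosis. No unligated liver was analysed here, so both groups share the operation. Each genotype had 1 ATAC library, made from nuclei of frozen liver. The labels do not give the allele, the number of animals, their age or sex, or the time after ligation.

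Most clade a serpins are plasma proteins secreted by hepatocytes. They include the alpha-1 antitrypsins, the antichymotrypsin-like inhibitors and carriers of steroid and thyroid hormone. Clades c, d, f and g hold plasma inhibitors of coagulation, fibrinolysis and complement, and clade e holds inhibitors found mostly in tissues. Clade b serpins lack a classical signal peptide and act mostly inside leukocytes and epithelial cells, where several protect the cell from its own granule proteases. Clade h is a collagen chaperone and not an inhibitor. In the mouse several single human genes correspond to tandem families, above all in the Serpina1, Serpina3, Serpinb1, Serpinb6 and Serpinb9 groups.

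A peak is a stretch of DNA that the authors' software called accessible to the Tn5 transposase. The deposited lists hold positions with no height, so the measures used here are the number of peaks, their summed width and whether a peak meets one of the other library in 1 bp or more. The knockout library held 83996145 fragments in 5339 nuclei and the wild-type library 40858512 in 5828 nuclei, a 2.06-fold difference in depth. The share of fragments in peaks was 46.0% in the knockout and 33.7% in the wild type, and that at transcription starts 31.6% and 27.2%. The whole lists held 106319 knockout and 72302 wild-type peaks, covering 91.3 Mb and 61.8 Mb, so the knockout library gave 59.5% of all peaks. With 1 library per genotype no difference could be tested, and all values describe these libraries. Intervals are exact binomial (Clopper-Pearson) 95% intervals of shares of peaks or genes, and cover counting error only. Mertk itself had 13 peaks in the knockout and 10 in the wild-type library, with 1 promoter peak in each, so open chromatin does not check the genotype labels. Liver identity was visible in the knockout library, where each of 20 hepatocyte marker genes had a promoter peak. Of these 20 markers, 3 had one in the wild-type library and 9 had no peak there at all, among them Alb (albumin), Cps1 and Cyp3a11. These markers held 156 knockout and 35 wild-type peaks in sum. Stellate cell and fibroblast markers (14 genes) held 89 and 34 peaks, cholangiocyte markers (12 genes) 54 and 17, and endothelial markers (12 genes) 186 and 101. Monocyte and macrophage markers (16 genes) held 108 and 122, neutrophil markers (12 genes) 38 and 38, and T, natural killer and B cell markers (16 genes) 26 and 38. Thus depth, the share of fragments in peaks and the markers of several cell types moved together with the genotype. Their part in the serpin values below was not tested. In such data fewer nuclei of a cell type and less accessible DNA per nucleus cannot be told apart.

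Serpin genes had more open chromatin peaks in the knockout library, and most of the excess lay in clade a, which holds secreted liver proteins, and none in the intracellular clade b. Counting a peak once when it was assigned to several serpins, the family held 213 distinct peaks in the knockout and 104 in the wild-type library. These summed to 181 kb and 90.4 kb, with mean widths of 851 bp and 869 bp. The knockout library gave 67.2% of the distinct serpin peaks (61.7 to 72.3%), against 59.5% over the whole lists. A peak was found for 47 serpins in the knockout and for 31 in the wild-type library. More peaks in the knockout were counted for 37 serpins (77.1%, where 60.3% of all genes with a peak had more), and more in the wild type for 6 (12.5%, against 16.2% of all genes). Of the 48 serpins, 17 had peaks in the knockout and 0 in the wild type, or 35.4%, where 13.0% of all genes had this pattern. The reverse was seen for Serpinb7 alone, and for 2.14% of all genes.

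**Figure D1:**
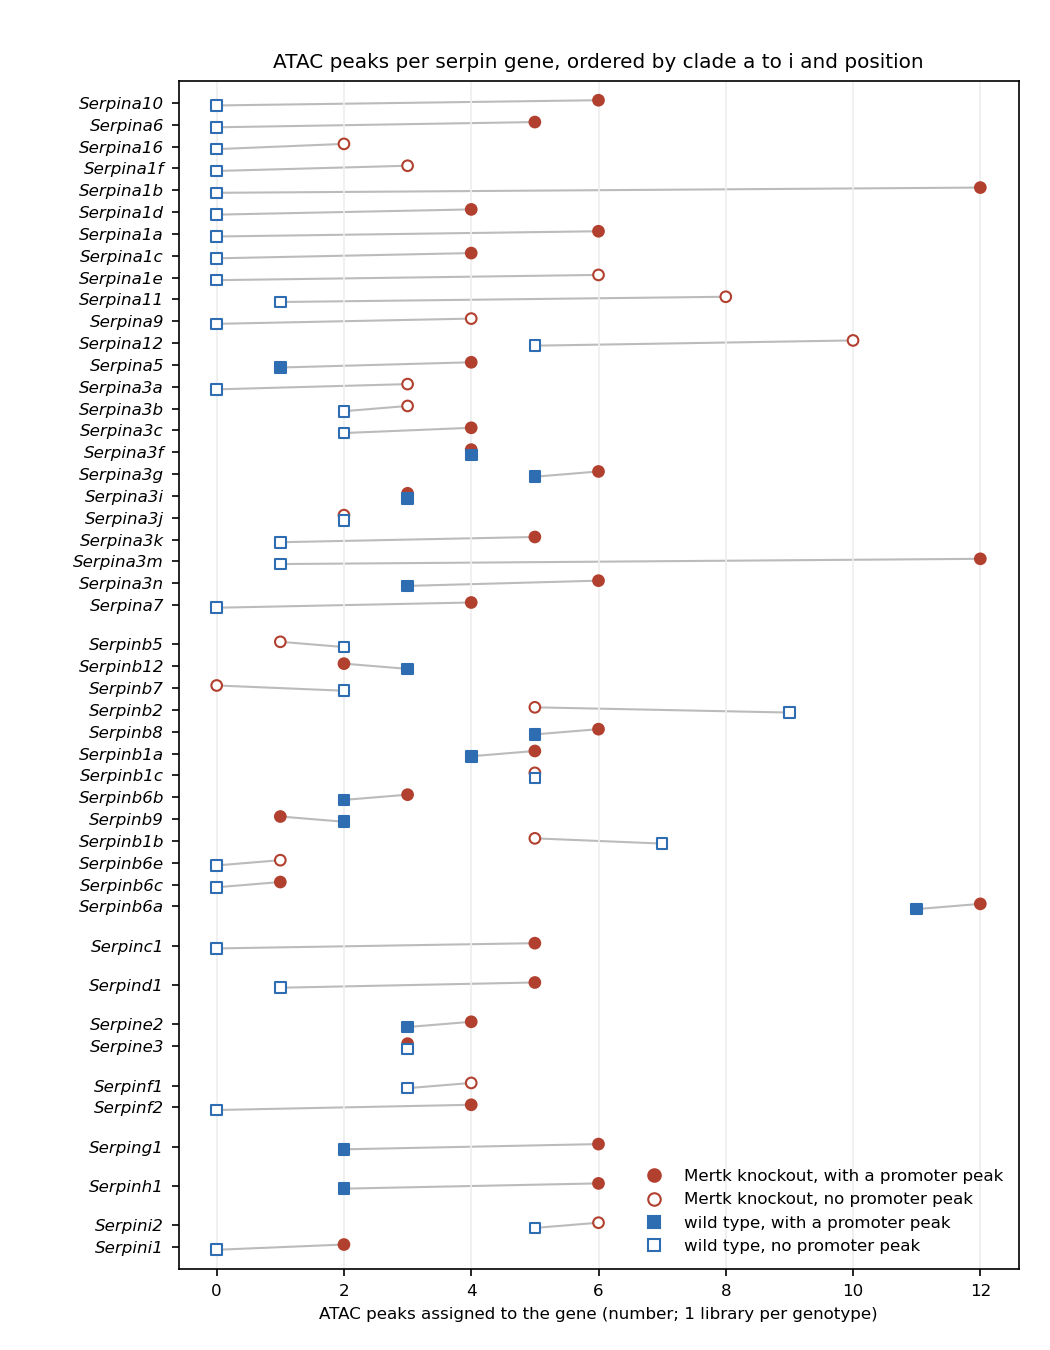
Number of ATAC peaks (x axis) assigned to each of 47 serpin genes (y axis, ordered by clade and chromosome position) in the knockout library (circles) and the wild-type library (squares), with filled symbols for genes with a promoter peak. Serpina1b and Serpina3m reach 12 knockout peaks against 0 and 1 wild-type peaks, while Serpinb6a has 12 and 11.

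Clade a and clade b stood on different sides of the whole lists. Clade a had 115 distinct knockout peaks and 29 distinct wild-type peaks, so the knockout library gave 79.9% of them (72.4 to 86.1%). Clade b had 47 and 52, and the knockout share was 47.5% (37.3 to 57.8%). Neither interval contained the 59.5% of the whole lists, and the intervals of the 2 clades did not overlap, although neighbouring peaks of a gene cluster are not independent. The smaller clades c to i had 51 and 23 distinct peaks together, a knockout share of 68.9% (57.1 to 79.2%). No clade a gene had more peaks in the wild type, whereas 6 of the 13 clade b genes did. The libraries also differed in which peaks they shared. In clade a 19.1% of the knockout peaks (12.4 to 27.5%) overlapped a wild-type peak, and in clade b 66.0% (50.7 to 79.1%), against 49.3% of all knockout peaks. Wild-type peaks overlapped a knockout peak in 75.9% of clade a and 59.6% of clade b cases, against 72.4% of all wild-type peaks. When the knockout list was reduced to its 68137 widest peaks, to cover the same length as the wild-type list, it gave 48.5% of all peaks. Clade a then had 64 knockout and 29 wild-type peaks, a knockout share of 68.8%, and clade b 30 and 52, a share of 36.6%.

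**Figure D2:**
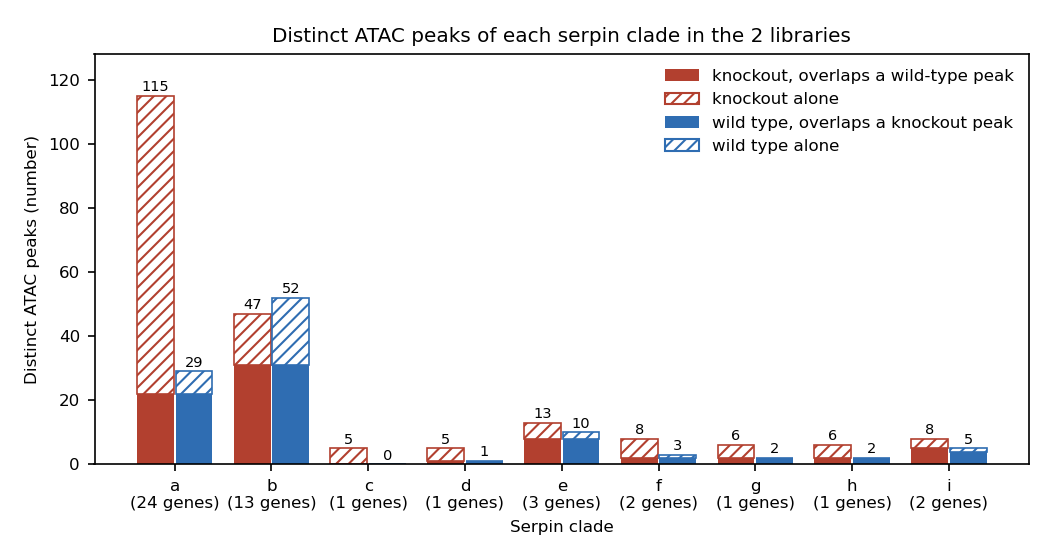
Distinct ATAC peaks (y axis, number) of each serpin clade (x axis), with the knockout bar left of the wild-type bar and the number above each bar. Solid parts overlap a peak of the other library and hatched parts do not; of the 115 knockout peaks of clade a 93 are hatched, of the 47 of clade b 16.

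The Serpina1 genes encode the alpha-1 antitrypsins, which protect tissue from neutrophil elastase and are among the most abundant hepatocyte products. All 6 Serpina1 genes had knockout peaks and 0 wild-type peaks, with 31 distinct peaks in the knockout library. Serpina1b had 12 peaks (10.1 kb) in the knockout, Serpina1a and Serpina1e 6 each (5.25 and 4.86 kb), Serpina1c and Serpina1d 4 each (3.31 and 3.24 kb) and Serpina1f 3 (2.67 kb). All 4 Serpina1d peaks were assigned to Serpina1b as well. These, and the Serpina1b peaks from 103809897 to 103828489, lay outside the RefSeq span of Serpina1b, 103728156 to 103738189. The 12 peaks of Serpina1b thus follow the authors' assignment and do not all lie at the gene. The genes lie in the Serpina cluster on chromosome 12, and the same pattern of peaks recurred along them. In Serpina1a to Serpina1d a promoter peak was centred close before the RefSeq gene start, at -86 bp in Serpina1a, -125 bp in Serpina1b, -81 bp in Serpina1c and -68 bp in Serpina1d. A second peak was centred 2490 bp after the start in Serpina1a, 2618 bp in Serpina1b, 2526 bp in Serpina1c and 2628 bp in Serpina1d. A further peak followed at 3908 bp in Serpina1a, 3702 bp in Serpina1b, 3993 bp in Serpina1c and 3921 bp in Serpina1d. Serpina1e had the inner pair at 2420 and 3770 bp and an additional peak at 1536 bp, but no promoter peak. Serpina1f, a more distant member of the group, likewise had no promoter peak.

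**Figure D3:**
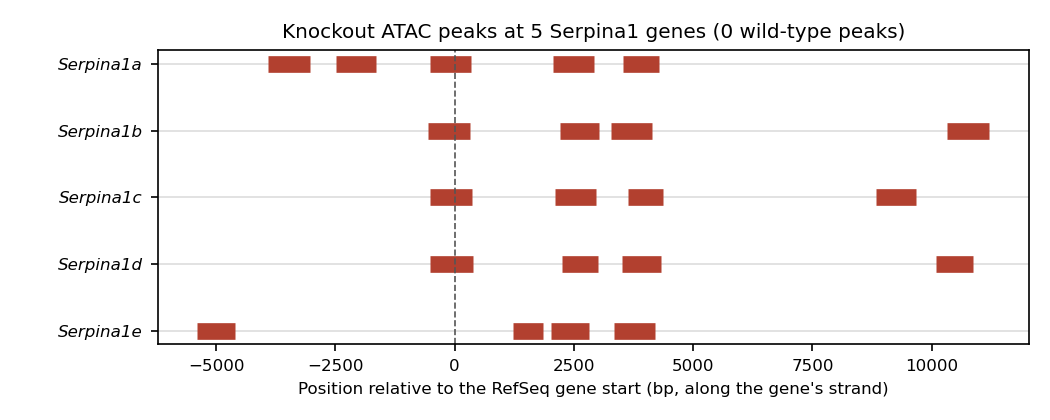
ATAC peaks of the knockout library (bars, drawn at their width) around Serpina1a to Serpina1e, each gene on its own line, with the x axis giving the position in bp along the gene's strand from the RefSeq start (dashed line). A promoter peak spans the start in Serpina1a to Serpina1d and is missing in Serpina1e, while peaks at 2420 to 2628 bp and at 3702 to 3993 bp recur in all 5; the wild-type library has 0 peaks here.

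Because the Serpina1 peaks recur at matching places, the stretch that carries their promoters is shown for 5 genes. RefSeq sequences of GRCm38.p6, the assembly behind mm10, are given as read on the minus strand, 80 bases each, around the letters GTTAAT. These letters are in capitals because they were later searched in all promoters. The 5 stretches share nearly all their other letters too.
Serpina1a, chr12:103863601-103863680: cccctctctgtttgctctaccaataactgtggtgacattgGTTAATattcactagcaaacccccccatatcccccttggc
Serpina1b, chr12:103738176-103738255: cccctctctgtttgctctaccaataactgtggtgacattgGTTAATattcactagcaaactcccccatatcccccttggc
Serpina1c, chr12:103904938-103905017: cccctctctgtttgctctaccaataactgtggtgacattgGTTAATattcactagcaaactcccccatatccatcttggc
Serpina1d, chr12:103773610-103773689: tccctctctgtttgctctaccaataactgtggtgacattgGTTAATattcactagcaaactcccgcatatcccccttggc
Serpina1e, chr12:103956936-103957015: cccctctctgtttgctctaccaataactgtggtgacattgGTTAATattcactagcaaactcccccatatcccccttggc
Between any pair of these stretches 0 to 4 of the 80 bases differed, and Serpina1b and Serpina1e were identical. In the libraries Serpina1b had a knockout peak over this stretch and Serpina1e did not. These letters lay 21 bases before the annotated start in Serpina1a, 26 in Serpina1b, 27 in Serpina1c, 16 in Serpina1d and 78 in Serpina1e. Over the whole RefSeq promoter windows, from 250 bases before to 50 after the start, Serpina1a to Serpina1d were 85.2 to 91.4% identical to each other and 63.9 to 69.3% identical to Serpina1e. Reads from such near-identical copies may be placed on the wrong gene or left unplaced, so the split of peaks among the Serpina1 genes is uncertain. The share of reads with low mapping quality was 8.90% in the knockout and 8.76% in the wild-type nuclei.

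The other clade a genes outside the Serpina3 group had 41 distinct knockout and 7 distinct wild-type peaks. Serpina6, which encodes corticosteroid-binding globulin, had 5 peaks (4.20 kb) in the knockout and 0 in the wild type, and Serpina7 on the X chromosome, which encodes thyroxine-binding globulin, had 4 (3.64 kb) and 0. Both hormone carriers had a promoter peak in the knockout alone. Serpina10, the protein Z-dependent inhibitor of factor Xa, had 6 peaks (5.25 kb) and 0, again with a promoter peak in the knockout alone. Serpina5, the protein C inhibitor, had 4 peaks and 1, and its promoter peak was present in both libraries. Serpina12 encodes vaspin, an adipokine that inhibits a tissue kallikrein, and had 10 knockout peaks and 5 wild-type peaks with no promoter peak in either. Serpina11 had 8 and 1, Serpina9 4 and 0, and Serpina16 2 and 0, also without promoter peaks.

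The Serpina3 genes correspond to human antichymotrypsin. Their 10 members had 43 distinct knockout peaks and 22 distinct wild-type peaks, of which 17 in each library overlapped the other. Unlike the Serpina1 genes, they differed widely among themselves. Serpina3m had 12 peaks (10.2 kb) in the knockout and 1 (0.997 kb) in the wild type, and Serpina3k had 5 (4.30 kb) and 1 (0.997 kb). All peaks of Serpina3k were also assigned to Serpina3m, so these genes are not independent observations. Serpina3c had 4 and 2 peaks, and like Serpina3k and Serpina3m had a promoter peak in the knockout alone. By contrast Serpina3f had 4 and 4 peaks, Serpina3g 6 and 5, and Serpina3i 3 and 3. The promoter peaks of these 3 genes and of Serpina3n overlapped between the libraries. Serpina3g inhibits lysosomal cathepsins in lymphoid and myeloid cells. Serpina3n is an acute phase inhibitor of granzyme B and had 6 peaks (5.08 kb) and 3 (2.60 kb). Serpina3j had 2 and 2, Serpina3b 3 and 2, and Serpina3a 3 and 0. At 1 place the annotation assigned overlapping peaks to different genes, Serpina3j in the knockout and Serpina3i in the wild type. Among the 8 Serpina3 promoters with a RefSeq window, identity ran from 40.9 to 89.9%, the highest between Serpina3c and Serpina3n.

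The promoter of Serpina3g is shown as an example of the Serpina3 genes with a promoter peak in both libraries. Shown are 150 bases before to 30 after its start at chr12:104235997-104236176, on the plus strand of GRCm38.p6 from RefSeq, with a match to the STAT recognition letters TTCNNNGAA in capitals.
Serpina3g: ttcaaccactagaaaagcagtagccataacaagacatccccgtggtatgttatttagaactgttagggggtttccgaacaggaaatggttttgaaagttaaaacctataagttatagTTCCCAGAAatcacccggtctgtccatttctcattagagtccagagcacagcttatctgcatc
The match began 33 bases before the start. Serpina3i held the same 9 letters 102 bases before its start and Serpina3f a related match, and all 3 promoters had a peak in both libraries. Serpina3n, whose promoter also had a peak in both libraries, held no match to the STAT letters in its window.

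Along chromosome 12 the clade a peaks of the libraries were not spread alike. The 23 clustered Serpina genes and their peaks spanned 829 kb with 114 knockout and 29 wild-type peaks. A stretch of 447 kb, from 103544797 to 103991945 in mm10, held no wild-type peak. It begins before the first cluster peak at 103598159. In it 56 knockout peaks began. Peaks assigned to Serpina10, Serpina11, Serpina16, Serpina6 and the 6 Serpina1 genes that lay wholly inside numbered 48. The last of the 56, a Serpina11 peak from 103991715 to 103992473, ran past the end of the stretch and overlapped a wild-type peak. This stretch was chosen after its values were seen. Across the genome 612 gaps of 300 to 600 kb between neighbouring wild-type peaks held a median of 4 knockout peaks, counted by their starts, and 56 was their maximum. The remaining 436 kb of the cluster, with Serpina9, Serpina12, Serpina5, the Serpina3 genes and the upstream peaks of Serpina11, held 63 knockout and 29 wild-type peaks assigned to clustered Serpina genes. The 63 include the Serpina11 peak that ran past the end of the stretch. There 34.9% of the knockout peaks and 75.9% of the wild-type peaks overlapped the other library. In the knockout list reduced to equal covered length the stretch still held 28 knockout peaks.

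**Figure D4:**
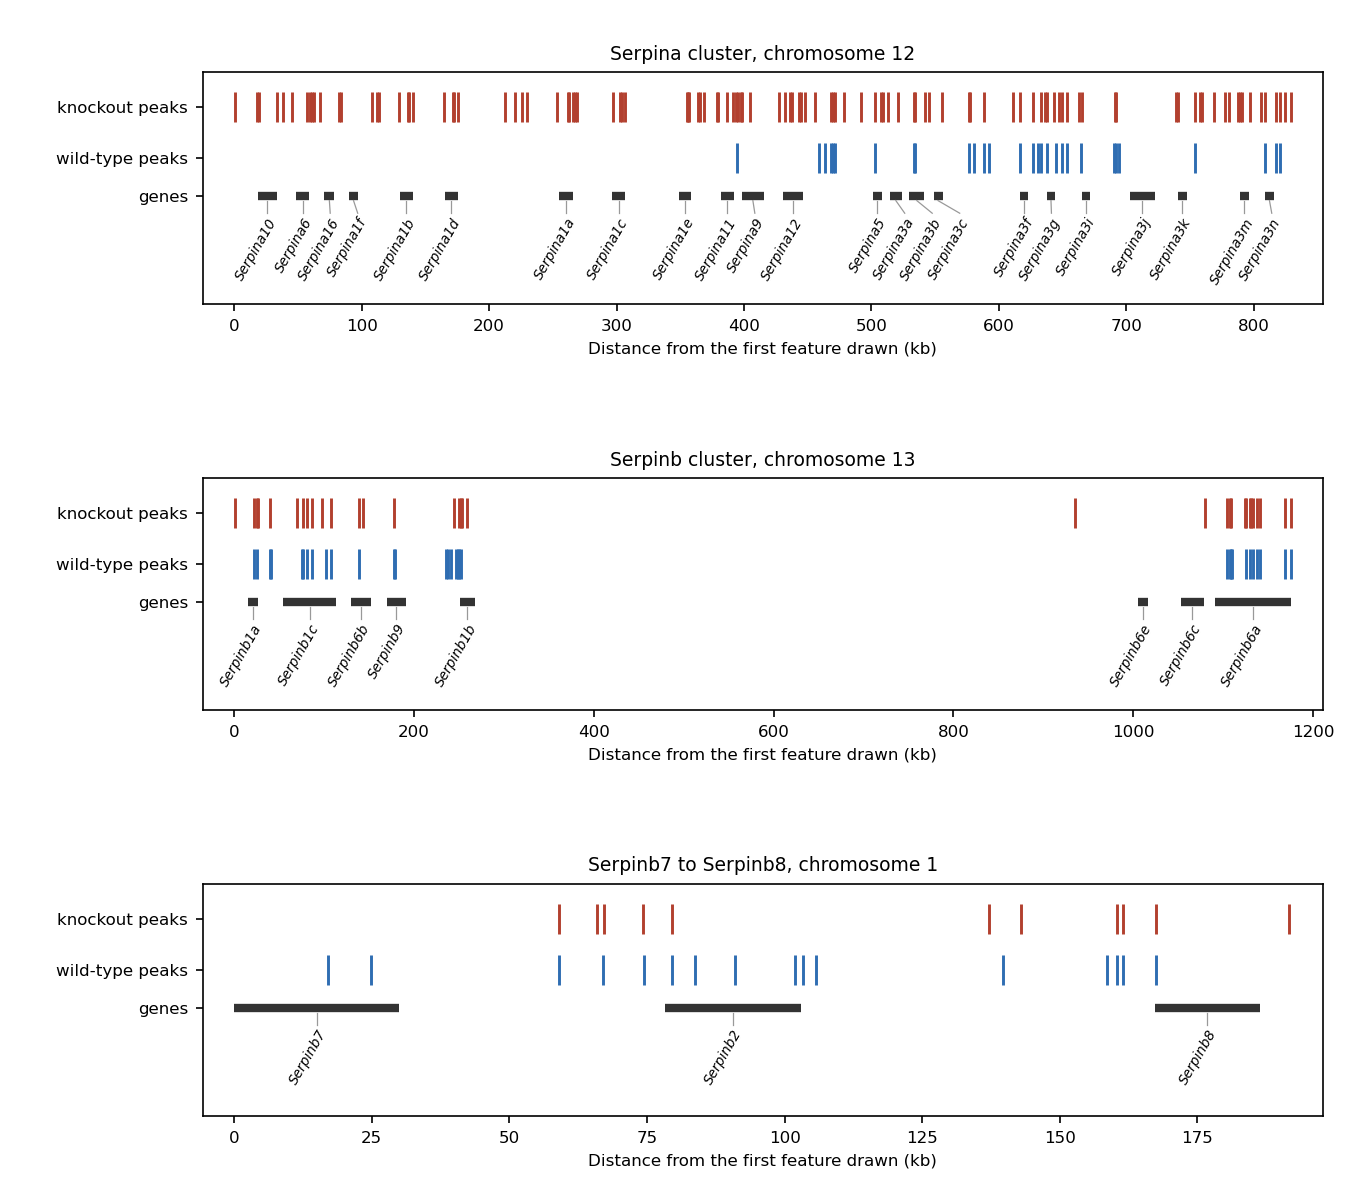
ATAC peaks (vertical ticks at the peak centres) of the knockout library, above, and the wild-type library, below, assigned to the clustered serpin genes (black bars), with distance in kb from the first feature drawn on the x axis. In the upper panel knockout ticks run along the whole Serpina cluster and the first wild-type tick stands beyond Serpina11; in the Serpinb panels both libraries have ticks at most genes.

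The plasma inhibitors of clades c, d, f and g act on coagulation, fibrinolysis and complement, and all had more peaks in the knockout library. Serpinc1 encodes antithrombin, the main inhibitor of thrombin and factor Xa, and had 5 peaks (4.17 kb) in the knockout and 0 in the wild type. They lay over its start and at 1758, 4505, 6740 and 8213 bp after it. Serpind1 encodes heparin cofactor II, a thrombin inhibitor, and had 5 peaks (4.19 kb) and 1 (0.826 kb), all of them also assigned to the neighbouring gene Pi4ka. Serpinf2 encodes the plasmin inhibitor alpha-2 antiplasmin and had 4 peaks (3.02 kb) and 0. Promoter peaks of these 3 genes were found in the knockout alone. Serping1 encodes the C1 inhibitor of complement and the contact system. It had 6 peaks (4.92 kb) and 2 (1.57 kb), and both wild-type peaks, the promoter peak among them, overlapped knockout peaks.

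The Serpinc1 promoter is shown as an example of a promoter with a knockout peak alone outside the chromosome 12 cluster. It lies at chr1:160978433-160978612 on the plus strand of GRCm38.p6 from RefSeq. The capitals mark a match to the C/EBP recognition letters TTGCNNAA, 4 bases after the annotated start.
Serpinc1: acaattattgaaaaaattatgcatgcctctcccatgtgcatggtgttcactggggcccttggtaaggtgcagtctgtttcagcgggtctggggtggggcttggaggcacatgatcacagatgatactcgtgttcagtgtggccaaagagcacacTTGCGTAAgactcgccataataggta
Its whole 300 base window held a match to only 1 of the 10 motifs searched, the C/EBP one, and had 41.3% G and C. The windows of Serpina7, Serpind1 and Serpinf2, also outside the cluster, likewise lay under a knockout peak alone. Serpina7 held a C/EBP match too, whereas Serpind1 and Serpinf2 held none of the 10 motifs.

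The serpins of clades e, h and i and Serpinf1 act mostly in tissues. Serpine2 encodes protease nexin 1, an inhibitor of thrombin and urokinase, and had 4 knockout and 3 wild-type peaks, its promoter peak being present in both. Serpine3 had 3 and 3, and its promoter peak, 706 bp before the start, was in the knockout alone. Serpinh1 encodes the collagen chaperone HSP47, on which collagen-producing cells depend. It had 6 peaks (4.95 kb) and 2 (1.85 kb), and its promoter peak was present in both libraries. The 4 knockout peaks without a wild-type counterpart lay within 6677 bp of its start. Serpinf1 encodes pigment epithelium-derived factor, an antiangiogenic protein that is not an inhibitor, and had 4 and 3 peaks, with no promoter peak in either. Serpini2 had 6 and 5. Serpini1, which encodes neuroserpin, had 2 and 0, but its promoter peak overlapped a wild-type peak that the annotation does not assign to Serpini1.

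Clade b presented another picture, with similar numbers of peaks in both libraries, of which 31 in each overlapped the other. That was 66.0% of its knockout peaks, above the 49.3% of the whole list, but 59.6% of its wild-type peaks, below 72.4%. The 8 genes on chromosome 13 had 33 knockout and 31 wild-type peaks, and 21 in each library overlapped the other. Serpinb6a, whose human counterpart inhibits cathepsin G, had 12 and 11, of which 10 overlapped, and all were also assigned to neighbouring genes. Serpinb1a, an inhibitor of neutrophil elastase and its relatives, had 5 peaks (4.04 kb) in the knockout and 4 (3.43 kb) in the wild type, with a shared promoter peak. Its paralogues Serpinb1b and Serpinb1c had 5 and 7, and 5 and 5, with no promoter peak. Serpinb9 protects cytotoxic lymphocytes from granzyme B and had 1 and 2, and its promoter peak was present in both. Serpinb6b had 3 and 2, while Serpinb6c and Serpinb6e had 1 and 0 each. The promoter peak of Serpinb6c, 983 bp before the start, made it the only clade b gene with a promoter peak in 1 library alone. Serpinb6a, with 2 knockout and 3 wild-type promoter peaks, had 1 wild-type promoter peak that no knockout peak met.

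The Serpinb9 promoter is shown as an example of a clade b promoter under a peak in both libraries. It lies at chr13:33004391-33004570 on the plus strand of GRCm38.p6 from RefSeq. Capitals mark a match to the IRF recognition letters GAAANNGAA, which here read on the opposite strand.
Serpinb9: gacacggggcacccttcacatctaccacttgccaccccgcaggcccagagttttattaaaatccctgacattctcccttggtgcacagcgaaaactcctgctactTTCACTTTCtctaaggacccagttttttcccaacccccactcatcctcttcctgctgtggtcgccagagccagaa
The match began 45 bases before the start.

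The 5 clade b genes on chromosome 1 had 14 knockout and 21 wild-type peaks, a knockout share of 40% (23.9 to 57.9%). In each library 10 of these peaks overlapped the other. Serpinb2 encodes plasminogen activator inhibitor 2, which monocytes and macrophages make when activated. It had 5 peaks (4.61 kb) in the knockout and 9 (8.44 kb) in the wild type, and 4 in each library overlapped. Those 4 lay upstream, from 29170 to 8760 bp before the start in the wild type. The other 5 wild-type peaks lay at 4490 bp before the start and 1752, 12734, 14041 and 16459 bp after it. No Serpinb2 peak of the knockout lay between the outermost of these 5. Serpinb7 had 0 knockout peaks and 2 wild-type peaks, which lay 16497 and 24404 bp after its start. Serpinb8 had 6 and 5 with a promoter peak in both, Serpinb12 2 and 3 with a promoter peak in both, and Serpinb5, which encodes maspin, 1 and 2. By the measure described next, 5 of 14 measured markers of monocytes and macrophages were shorter in the knockout and none longer. Over all measured genes 4.08% were shorter and 10.3% longer. Whether this bears on Serpinb2 was not tested, and the shorter call of Serpinb2 was itself lost in several settings given below.

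To set genes side by side, the accessible length of a gene was taken as the summed width of its peaks. Its log2 ratio of knockout to wild type was computed with 1 kb added to both sides, for genes with a mean of at least 2 kb, and centred on the median over all 14692 such genes, which was 0.39. A centred ratio of 1 or more was called longer and of -1 or less shorter, and this criterion describes size without testing it. Of the 48 serpins 32 reached the minimum. Of these 10 were longer in the knockout (31.2%, where 10.3% of all measured genes were), 1 was shorter (3.12%, against 4.08%), and 21 lay between. The median over the 32 was 0.16. A gene with no wild-type peak reaches the minimum only with at least 4 kb in the knockout, and is then longer by construction. This held for 6 of the 10, namely Serpina1b (3.08), Serpina10 and Serpina1a (2.25 each), Serpina1e (2.16), and Serpina6 and Serpinc1 (1.98 each). The Serpina1b value includes the peaks assigned to it outside its RefSeq span. The other 4, of 26 measured serpins with wild-type peaks, were Serpina3m (2.10), Serpina11 (1.74), Serpind1 (1.11) and Serpina3k (1.02). Serpinb2 was the shorter one (-1.14), a call that was lost without centring, with 2 kb added, from promoter peaks alone and in the knockout list reduced to equal covered length. In that reduced list 3 serpins were longer (Serpina11, Serpina1b and Serpina3m, where 9.81% of all measured genes were). Serpinb1a alone was shorter there, where 7.23% of all measured genes were. The number of longer serpins thus fell from 10 to 3. How many serpins reached the minimum in that list is not given here, so no serpin share can be set against these percentages. An excess of longer serpins is therefore not shown for the reduced list. Serping1 (0.81), Serpinh1 (0.67) and Serpina5 (0.85) lay between. Clade a held 8 longer genes among 15 measured, and clade b none among 8. The 8 include Serpina1b, Serpina10, Serpina1a, Serpina1e and Serpina6, which were longer by construction, so this contrast leans on them.

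**Figure D5:**
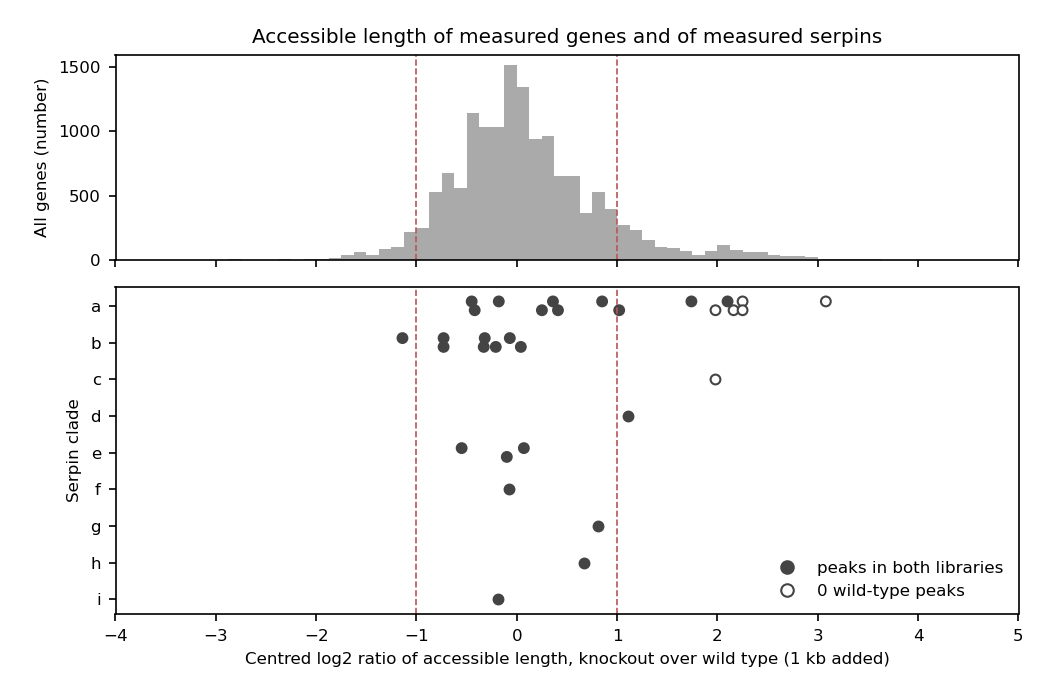
Centred log2 ratio of accessible length, knockout over wild type with 1 kb added (x axis), as a histogram of all 14692 measured genes (upper panel) and as points for the 32 measured serpins by clade (lower panel); open points have 0 wild-type peaks and dashed lines mark -1 and 1. Clade a points spread to the right as far as 3.08, and all 8 clade b points lie at or left of 0.04.

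Promoter peaks showed the same division. A promoter peak was found in the knockout alone for 16 serpins, in both libraries for 15, in the wild type alone for 0 and in neither for 17. The 16 were 51.6% (33.1 to 69.8%) of the 31 serpins with a promoter peak, against 15.4% of all genes with one, and a promoter peak in the wild type alone was seen for 3.17% of all genes. The 16 are not independent, so the interval is too narrow. Several lie in the chromosome 12 cluster, Serpina1a to Serpina1d are near-identical copies, and Serpina3k and Serpina3m share a promoter peak. In clade a 10 genes had a promoter peak in the knockout alone and 5 in both. In clade b 1 had it in the knockout alone and 6 in both. In clades c to i the numbers were 5 and 4. At 15 of the 16 genes the knockout promoter peak overlapped no wild-type peak of any gene, Serpini1 being the exception. In the knockout list reduced to equal covered length, 25 serpins had a promoter peak in either library. Of these 25, 10 had it in the knockout alone, where 10.0% of all genes with a promoter peak did. They were Serpina1a to Serpina1d, Serpina6, Serpina7, Serpinb6c, Serpinc1, Serpine3 and Serpini1. In that list 3 of the 25 (Serpinb1a, Serpinb12 and Serpinh1) had one in the wild type alone, where 25.4% of all genes with a promoter peak did.

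The letters of the promoters were then described. Of the 48 serpins 40 had a RefSeq promoter window of 300 bases, and 8 had none in the table used, among them Serpina10, Serpina3k, Serpina3m, Serpina6, Serpina9, Serpinb1a and Serping1. Of the 40 windows 9 lay under a knockout peak alone (22.5%, against 7.86% of all 27025 windows), 13 under peaks of both libraries (32.5%, against 40.7%), 0 under a wild-type peak alone (against 1.66%) and 18 under neither (45.0%, against 49.8%). Serpin promoters with a peak in both libraries had a median of 48.7% G and C and 5 CpG dinucleotides, against 61.3% and 21.0 in all promoters with peaks in both. Those with a knockout peak alone (9 windows) had a median of 47.7% G and C, against 54.0% over all promoters of this kind. Letters were searched on both strands. The C/EBP letters TTGCNNAA were present in 5 of the 9 windows under a knockout peak alone, against 15.4% of all windows of this kind. The same letters were present in 3 of the 13 serpin windows under peaks in both libraries, against 7.97% of all such windows. The letters GTTAAT, added to the search after the Serpina1 promoters had been read, was found in 6 of the 9, namely Serpina1a to Serpina1d, Serpina3c and Serpina7, against 10.0% of all windows of this kind. Under peaks in both libraries it was found in 1 of the 13, Serpinb8, against 3.74% of all such windows. The AP-1 letters TGANTCA occurred in 4 of the 9, all of them Serpina1 genes, against 9.22%, and in 2 of the 13, against 4.93%. Since Serpina1a to Serpina1d have near-identical promoters, their GTTAAT and AP-1 matches count as 1 sequence rather than 4. Their C/EBP matches are not all at 1 shared site, although the copies are not independent there either. The match lay 24 bases after the start in Serpina1a, and 161 and 149 bases before it in Serpina1b and Serpina1d. Serpina1c had none. The STAT letters TTCNNNGAA and the IRF letters GAAANNGAA were in 0 of the 9. Each was in 4 of the 13 windows under peaks in both libraries, where 6.86% and 7.03% of all such windows held them. The IRF windows were those of Serpina3f, Serpina5, Serpinb6a and Serpinb9, and the STAT windows those of Serpina3f, Serpina3g, Serpina3i and Serpinb6a. Serpin windows under no peak also held letters more often than other such windows did. The C/EBP letters were in 5 of these 18 (27.8%, against 12.4%), and the STAT, IRF and AP-1 letters in 3 each (16.7%, against 9.95%, 9.79% and 10.1%). The letters GTTAAT were in 2 of the 18 (11.1%, against 9.59%). IRF and STAT matches overlapped in Serpina3f and Serpinb6a. Over all 40 windows the TATA letters TATAAA were in 10 (25%, against 14.2% of all promoters) and the PU.1 letters AGAGGAAG in 4 (10.0%, against 4.51%). The longer letters GTTAATNAT, which contain GTTAAT, were in Serpini2 alone (2.50%, against 0.836%). The FOXA letters TGTTTAC (3.55% of all promoters) and the HNF4 letters CAAAGTCCA (0.477%) were in none. Such a match says only that the letters are there.

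The targets, receptors and neighbours of the serpins in their pathways were set beside them, as counts of genes longer and shorter in the knockout by the same size rule, where 10.3% and 4.08% of all measured genes were. Of 17 measured proteases that serpins inhibit, 2 were longer and none shorter, with a median centred ratio of 0.17. The 2 were Klkb1, plasma kallikrein, a target of the C1 inhibitor (2.57, with 8 knockout and 0 wild-type peaks), and F11, coagulation factor XI (1.98, with 11 and 1). F2, the thrombin precursor and target of Serpinc1 and Serpind1, had 5 and 1 peaks (0.95). Elane, neutrophil elastase and the main target of alpha-1 antitrypsin, had 3 and 1, and Gzmb, the target of Serpinb9, had 2 and 3. Of the 23 proteases with a promoter peak, 12 had it in the knockout alone and 2, Gzmb and St14, in the wild type alone, where 15.4% and 3.17% of all genes with one did. Of 9 measured clearance receptors and cofactors, which remove serpin complexes or hold serpins on heparan sulfate, Sdc4 (syndecan 4) was longer (1.07) and none was shorter, with a median of 0.36. Vtn, vitronectin, had 2 peaks and 0. Of 15 measured protease inhibitors outside the serpin family 4 were longer and none shorter (median 0.14). They were Pzp, an alpha-2 macroglobulin relative (2.73), Ahsg (2.17), Itih2 (1.95) and Fetub (1.46), all products of hepatocytes. Of 17 measured transcription factors of liver and acute phase genes 7 were longer and none shorter (median 0.32). Among them were Foxa1 (2.64, with 9 and 0 peaks) and Hnf4a (1.31, with 7 and 1). For the cell markers, 12 of 17 measured hepatocyte genes were longer and none shorter (median 1.37), as were 6 of 9 stellate cell and fibroblast genes (1.17), 4 of 6 cholangiocyte genes (1.16) and 1 of 11 endothelial genes (0.45). Shorter were 1 of 5 neutrophil genes (median -0.66), 5 of 14 monocyte and macrophage genes (-0.52) and 2 of 8 T, natural killer and B cell genes (-0.59), and none of these 3 lists had a longer gene. Of the longer genes, 7 hepatocyte markers, 2 cholangiocyte markers, 1 stellate cell and fibroblast marker, 1 protease (Klkb1), 2 other inhibitors (Pzp and Ahsg) and 2 transcription factors had 0 wild-type peaks, so they were longer by construction and the counts and medians of their lists lean on them. Among the shorter ones Klrk1 had 0 knockout peaks. Whether the cell makeup of the libraries bears on the serpin values was not tested.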

How the data were processed

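The 10x Genomics Multiome assay gave 1 ATAC and 1 RNA library per genotype from shared nuclei, and only the ATAC files were used here. Per the file headers, the authors ran cellranger-arc 2.0.2 with an mm10 reference, and peaks were called per library. The deposited peak lists hold positions without scores, and the authors' annotation names the gene of each peak: promoter peaks lie up to 1000 bp before or 100 bp after a start. Depth was summed from the raw counts of reads and fragments per barcode that the authors deposited.

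Promoter and distal peaks of the autosomes, X and Y were used, and a peak listed more than once for a gene was counted once. Distances other than those of Serpina1 peak centres are the authors' own, from their gene start to the nearest edge of the peak. Overlaps were equal to those of bedtools 2.31.1, and the ratio calculation was tested on simulated data. Python 3.11.15, numpy 2.4.6, pandas 2.3.3, scipy 1.17.1 and biopython 1.88 were used. Gene starts, names and promoter sequences are RefSeq's for GRCm38.p6, and all 48 members had coordinates there. Every member may be named (1 member and 1 gene of a list are counted but not reported by name here), as may the 4 largest ratios of each list and genes with a promoter peak in 1 library. The members, the 11 lists and the 14 alternatives were chosen with earlier results of these data known. Without replicates no test was made. Whether a library comes from 1 animal or a pool is not stated by the labels.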

Additional observations from a re-analysis of the deposited data

How the results depend on the processing

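No paired analysis was possible because each genotype had 1 library. In 15 settings, 14 planned and 1 added after seeing the data, 47 values stayed within 1.5 times the reported count or inside the interval of the reported share, and 17 moved beyond. The number of serpins longer in the knockout, 10 as reported, was 19 with no minimum length, 2 with a minimum of 4 kb, 0 from promoter peaks alone and 3 in the knockout list reduced to equal covered length. The number shorter, 1 as reported (Serpinb2), was 1 in that reduced list but another gene (Serpinb1a), was 0 with 1 kb replaced by 2 kb, with no centring or from promoter peaks alone, and 2 with no minimum length. From promoter peaks alone 50% of knockout and 94.1% of wild-type serpin peaks were shared. In the knockout list reduced to equal covered length the knockout share of serpin peaks was 53.8% (clade a 68.8%, clade b 36.6%), 46.2% of wild-type serpin peaks were shared, and promoter peaks were in the knockout alone for 10 serpins and in the wild type alone for 3. With promoters taken from RefSeq gene starts, 10 serpins had one in the knockout alone. Why these values moved was not tested, apart from the smaller number of genes or peaks that a minimum, promoter peaks or a shorter list leaves. Depth was 2.06-fold greater in the knockout, and the share of fragments in peaks was 46.0% there and 33.7% in the wild type. Both limit the reading of peaks missing in the wild type: a missing peak was not called in that library and is not shown to be absent.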

Other observations

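Among all 72281 gaps between neighbouring wild-type peaks, only 3 held the starts of 56 or more knockout peaks, the gap over the Serpina1 genes among them. The highest number was 57. Shared serpin peaks sat at nearly the same place in both libraries: the median distance between their centres was 51.5 bp and the median overlap 812 bp, and 71 of 73 shared knockout peaks were assigned to the same serpins in both.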
